A study of Rattus norvegicus with 24 samples.

Results

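Protease inhibitors secreted or held within retinal cells were examined in the streptozotocin (STZ) rat model of diabetes: the tissue inhibitors of metalloproteinases Timp1, Timp2 and Timp3, the broad protease trap A2m (alpha-2-macroglobulin), the serpins Serpinf1 (pigment epithelium-derived factor) and Serpinh1 (the collagen chaperone Hsp47), and cystatin C (Cst3). They were chosen by name, and every probe whose RefSeq accession maps to one of the 7 symbols was taken. This gave 7 probes for 6 of the 4013 genes that could be named on the array, with 2 probes for Serpinh1. No probe matched Cst3, which is not analysed here. Whole-retina RNA from male Sprague Dawley rats was read on 1-color CodeLink rat whole genome arrays. The rats had received the beta cell toxin STZ or the vehicle, and were studied 1 month (1M) or 3 months (3M) after the injection. There were 6 arrays in each of the groups 1M Control, 1M STZ, 3M Control and 3M STZ, described by the submitters as biological replicates. The animal counts in the study do not match the number of 1M Control arrays, so that these arrays may not all be from separate rats, and p-values measure the spread between arrays. Only STZ rats whose blood glucose had passed a set limit entered the diabetic groups and none received insulin, so the model is one of untreated insulin deficiency and its controls are of matching age.

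Protease inhibitors set how long secreted proteases act. Timps close the active site of matrix metalloproteinases, the enzymes that cut collagens and other matrix proteins, and Timp3 is itself held in the matrix beneath the retinal pigment epithelium. A2m traps proteases of every class and is, in the rat, an acute phase protein driven by interleukin-6 through Stat3. Pigment epithelium-derived factor is a serpin that does not inhibit proteases and is known as a neuroprotective and antiangiogenic factor of the eye, and Hsp47 is a serpin that keeps procollagen folded in the endoplasmic reticulum.

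The 250 bases before the annotated start of 4 of these genes are shown because Timp1, Timp2 and Serpinf1 were called higher at 3 months and Timp3 was not. The sequences are from RefSeq (GRCr8, reverse strand), 5′ to 3′, at chrX:3771123-3771372 for Timp1, chr10:104089215-104089464 for Timp2, chr10:60760899-60761148 for Serpinf1 and chr7:19459559-19459808 for Timp3. Capitals mark GGGCGG, the GC box bound by Sp1, on either strand, and TGAGTAA, a variant of the AP-1 site.
Timp1: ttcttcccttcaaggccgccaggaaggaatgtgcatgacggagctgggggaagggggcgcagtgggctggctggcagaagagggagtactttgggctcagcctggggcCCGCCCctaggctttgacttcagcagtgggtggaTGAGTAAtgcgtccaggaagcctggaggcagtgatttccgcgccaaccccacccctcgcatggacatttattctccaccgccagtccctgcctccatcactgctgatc
Timp2: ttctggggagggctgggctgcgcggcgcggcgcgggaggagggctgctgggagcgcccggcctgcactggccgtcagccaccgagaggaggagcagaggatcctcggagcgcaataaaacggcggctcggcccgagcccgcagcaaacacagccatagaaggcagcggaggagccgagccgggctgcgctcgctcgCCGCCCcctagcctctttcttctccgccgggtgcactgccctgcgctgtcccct
Serpinf1: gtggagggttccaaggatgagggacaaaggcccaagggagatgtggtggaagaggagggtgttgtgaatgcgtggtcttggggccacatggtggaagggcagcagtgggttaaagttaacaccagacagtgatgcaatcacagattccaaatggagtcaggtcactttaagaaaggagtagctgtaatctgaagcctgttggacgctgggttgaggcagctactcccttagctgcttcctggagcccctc
Timp3: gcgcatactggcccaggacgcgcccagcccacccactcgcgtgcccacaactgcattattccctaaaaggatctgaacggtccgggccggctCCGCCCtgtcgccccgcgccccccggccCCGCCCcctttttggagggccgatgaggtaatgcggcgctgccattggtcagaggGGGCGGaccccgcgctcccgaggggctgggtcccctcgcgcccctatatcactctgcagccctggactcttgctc
The palindromic Stat site TTCNNNGAA, which 7.67% of 33469 rat promoter windows of this length hold, and the AP-1 site TGANTCA, held by 6.34%, matched none of the 6 windows found (these 4, Serpinh1 and Cst3). A2m has no entry. The variant TGAGTAA, searched on both strands after the sequences had been seen and different from TGANTCA at 1 base, matched once, in Timp1, starting 108 bases before the start, and is held by 2.38% of all windows. The GC box, like this variant, was not among the motifs fixed in advance. It matched 3 times in Timp3, once each in Timp1, Timp2, Serpinh1 and Cst3 and not in Serpinf1, and is held by 30.5% of all windows. The GC content was 61.2% for Timp1, 72.0% for Timp2, 69.6% for Timp3 and 53.2% for Serpinf1. A match of letters is a description of the window only.

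Values are given as scaled intensity, the brightness of the spot after background subtraction divided by the median of the rat probes on the same array, so that 1 is the median probe. Levels of different probes cannot be set against each other. Before scaling, array medians lay between 124 and 359.6 at 1 month, between 149 and 308 on 3M Control arrays and between 125 and 164 on 3M STZ arrays. The range of signals also differed, with an interquartile range of log2 intensity of 3.36 to 3.67 at 1 month, 1.48 to 2.23 on 3M Control arrays and 2.07 to 2.70 on 3M STZ arrays. Of the 7 probes, 5 passed the limit for testing, a median scaled intensity of 0.554 over the 24 arrays, namely Timp1, Timp2, A2m, Serpinf1 and 1 of the Serpinh1 probes. Timp3 and the second Serpinh1 probe were dimmer.

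At 3 months of diabetes Timp1, A2m, Serpinf1 and Timp2 were all higher, and Serpinh1 did not pass the test. A probe was called at an adjusted p under 0.05 in limma and at least a 1.2-fold difference. Of the 5 probes tested, 4 were called higher at 3 months, where 50.5% of the 22025 probes tested were called higher and 3.55% lower. Over all tested probes the log2 fold change had a median of 0.44. At 1 month none of the 5 was called, and 0.00908% of all tested probes were. With so large a share of all probes called, the count of 4 says little about these genes, and their rank among all tested probes is given beside each change.

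**Figure D1:**
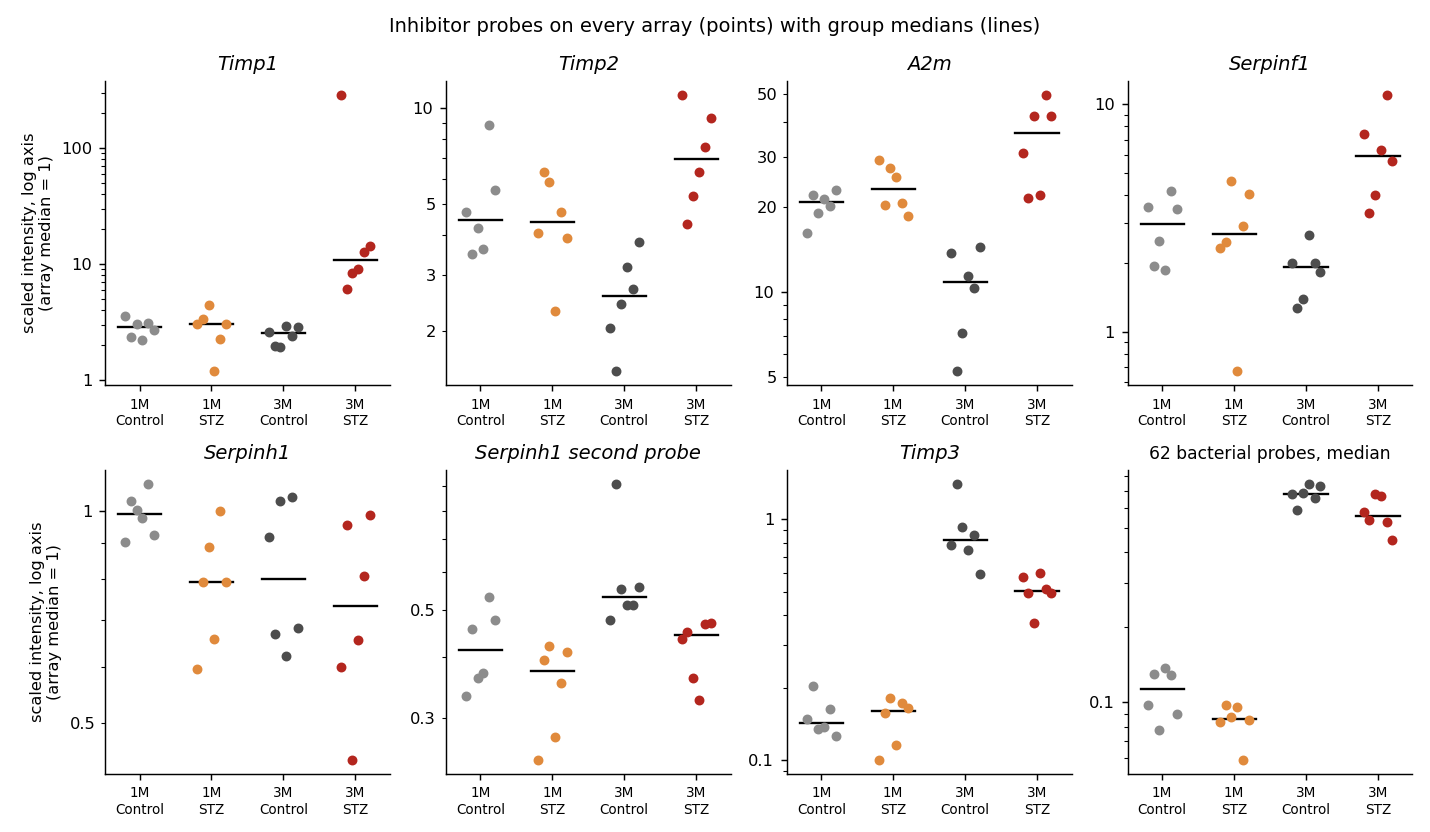
Scaled intensity (log axis, array median = 1) of the 7 inhibitor probes and the median of the 62 bacterial control probes on each of the 24 arrays. Points are arrays, 6 in each group, and lines are group medians. All 6 3M STZ arrays lie above all 6 3M Control arrays for Timp1, Timp2, A2m and Serpinf1, and 1 Timp1 point, at 287, lies far above the other 5.

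Timp1, the inducible member of its family, had scaled intensities on the 3M STZ arrays 1 to 6 of 287, 6.06, 8.43, 9.16, 12.7 and 14.3. The 3M Control arrays ran from 1.95 to 2.94, with 2.53 as the median. Every 3M STZ array was thus above every 3M Control array, and also above the highest of the 18 arrays of the other groups, 4.46. Over all 6 arrays the log2 fold change was 2.80 ± 0.54 (SE, limma adjusted p = 0.000488), a 6.98-fold difference. Without 3M STZ array 1 it was 1.99 ± 0.25 (adjusted p = 2.81e-05), a 3.96-fold difference. With the single array Timp1 ranked 8 of 22025 probes by log2 fold change and without it 30. Without that array 48.5% of all tested probes were called higher. The test of the study's methods, which does not assume equal variances, called A2m, Serpinf1 and Timp2 higher but not Timp1 over all arrays, among 15.8% of probes called higher.

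The 287 on 3M STZ array 1 stood beside other bright spots. Of the 8 spots around Timp1, the one directly above read 50.03 there against a median of 0.388 on the other 3M STZ arrays, and the next one to the right in that row 182.6 against 0.530. The 6 remaining neighbors, such as the one to the left at 8.39 against 9.48, were close to their usual level. Array 3M STZ 1 had 347 spots over 5 times the highest value of the other 3M STZ arrays (and above 2), and 266 of these touched another such spot. The other 23 arrays had between 0 and 33 such spots each by the same measure within their groups, 130 in all, of which 21 touched another. None of the spots of the 6 other inhibitor probes on this array was among the 347, nor was any of the 8 spots around each of them. What made these spots bright was not tested, and the 5 other arrays give the Timp1 difference without it. On those 5 arrays Timp1 had a mean of 10.1 ± 3.32 (SD, n = 5), against 2.47 ± 0.434 (SD, n = 6) on 3M Control arrays.

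**Figure D2:**
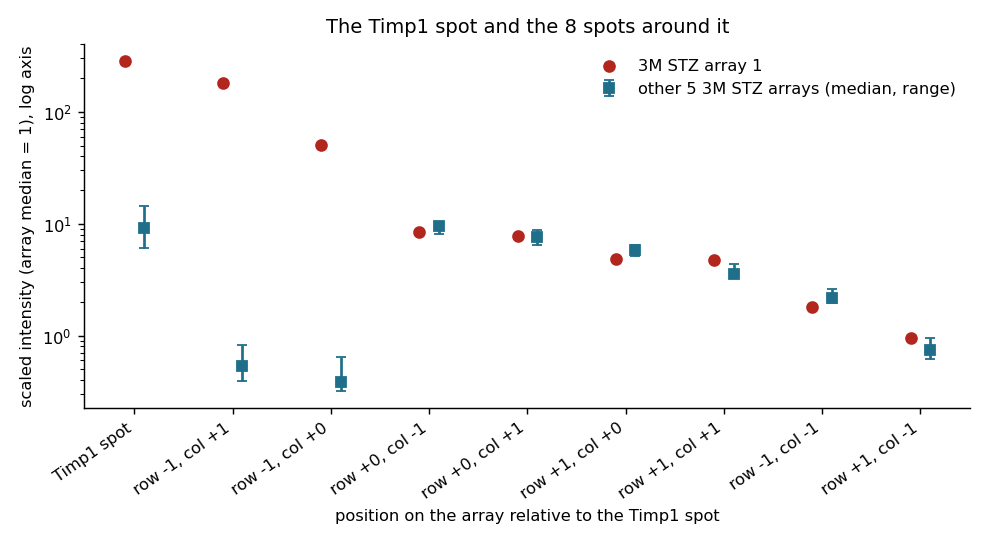
Scaled intensity (log axis, array median = 1) of the Timp1 spot and of the 8 spots around it, on 3M STZ array 1 (circles) and as median and range of the other 5 3M STZ arrays (squares). Positions are rows and columns relative to the Timp1 spot. The Timp1 spot and 2 of its neighbors lie far above the other arrays, and the other 6 neighbors lie near them.

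Timp2, the constitutive Timp that also helps to activate pro-Mmp2 on the cell surface, ranged from 1.49 to 3.79 on the 3M Control arrays with a median of 2.57. On the 3M STZ arrays it ranged from 4.34 to 11.01 with a median of 6.95. The groups did not overlap, but 3M STZ reached only in part above the 1 month arrays, whose highest value was 8.85. The log2 fold change at 3 months was 1.48 ± 0.26 (adjusted p = 0.000267), a 2.79-fold difference at rank 149 of 22025. Before scaling, 4 of the 6 STZ arrays were above all controls.

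A2m was on every array among the brighter probes, at the 95.4 to 99.6 percentile. On the 3M Control arrays it ranged from 5.23 to 14.4 with a median of 10.8, and on the 3M STZ arrays from 21.5 to 49.8 with a median of 36.4. No 3M STZ array overlapped the 3M Control arrays, before or after scaling, while 4 of the 6 lay above all other arrays, the highest of which read 29.2. The log2 fold change was 1.76 ± 0.23 (adjusted p = 2.76e-05), a 3.38-fold difference at rank 64.

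Serpinf1 ranged from 1.27 to 2.66 with a median of 1.91 on the 3M Control arrays. On the 3M STZ arrays it ranged from 3.33 to 11.01 with a median of 5.95. The groups did not overlap, and 4 of the 6 STZ arrays lay above all 18 other arrays, the highest of which read 4.60. The log2 fold change was 1.69 ± 0.34 (adjusted p = 0.000619), a 3.22-fold difference at rank 71. By percentile on the array, however, the groups met: 59.9 to 78.5 on 3M Control arrays and 77.3 to 93.5 on 3M STZ arrays. Of all tested probes, 9.49% had every 3M STZ array above every 3M Control array in scaled intensity, which these 4 probes also did.

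The remaining inhibitor probes did not rise. Serpinh1 read 0.623 to 1.05 on the 3M Control arrays (median 0.799) and 0.443 to 0.985 on the 3M STZ arrays (median 0.733). The groups overlapped, and the log2 fold change was -0.18 ± 0.18 (adjusted p = 0.398), with an approximate 95% interval of -0.53 to 0.17. The second Serpinh1 probe, made for the same transcript, read 0.477 to 0.910 on 3M Control and 0.327 to 0.470 on 3M STZ arrays. It did not overlap, with a log2 fold change of -0.46, as did 3.60% of all rat probes in this direction. Timp3 read 0.594 to 1.41 on 3M Control arrays and 0.372 to 0.599 on 3M STZ arrays, so that 5 of the 6 STZ arrays lay below all controls. Its log2 fold change was -0.76. Neither of these dim probes was tested in the main comparison. With no filter on dim probes limma called both lower (Timp3 adjusted p = 0.00362, second Serpinh1 probe 0.0319), where 14.2% of 33849 rat probes were called lower.

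At 3 months Timp3 and both Serpinh1 probes lay close to the level of the 62 bacterial control probes, which have no target in the rat. The median of these bacterial probes was 0.586 to 0.750 on 3M Control arrays and 0.447 to 0.680 on 3M STZ arrays. The tested Serpinh1 probe was below the bacterial median of its own array on 2 of 6 3M Control and 2 of 6 3M STZ arrays, so that its log2 fold change and interval at 3 months are those of a probe near background. The second Serpinh1 probe was below it on 5 of 6 arrays in both groups, and Timp3 on 2 of 6 3M Control and 5 of 6 3M STZ arrays. At 1 month the bacterial median was 0.0589 to 0.137, and Timp3 read 0.1005 to 0.204. Both Serpinh1 probes were then above it, the second at 0.332 to 0.531 on 1M Control and 0.246 to 0.421 on 1M STZ arrays. The level of the bacterial probes moved in the same direction as Timp3 and the second Serpinh1 probe at 3 months, and its part in their difference was not tested.

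At 1 month no inhibitor differed between STZ and control rats by the test. Timp1 read 2.24 to 3.58 on 1M Control and 1.197 to 4.46 on 1M STZ arrays, with a log2 fold change of -0.06 ± 0.54. Timp2 had a log2 fold change of -0.15 ± 0.26, and its groups overlapped at 3.48 to 8.85 and 2.32 to 6.31. A2m read 16.2 to 22.9 on 1M Control and 18.6 to 29.2 on 1M STZ arrays. Its log2 fold change was 0.21 ± 0.23, with an approximate 95% interval of -0.23 to 0.65, and 3 of the 6 STZ arrays lay above all controls. Serpinf1 was at -0.19 ± 0.34 and Serpinh1 at -0.35 ± 0.18, the latter with 5 of the 6 STZ arrays below all controls. The adjusted p of all 5 probes was 0.9999 at 1 month.

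The difference between the 3 month and the 1 month effect was tested directly. It was 2.87 ± 0.77 on the log2 scale for Timp1 (adjusted p = 0.0261) and 2.05 ± 0.34 without 3M STZ array 1 (adjusted p = 0.00581). For Serpinf1 it was 1.88 ± 0.48 (adjusted p = 0.0232), for Timp2 1.63 ± 0.37 (adjusted p = 0.0171) and for A2m 1.54 ± 0.32 (adjusted p = 0.0125). All 4 were larger at 3 months, as were 14.8% of all tested probes. Under other processing, described below, some of these calls were lost. Their count was 1 with quantile normalization within each time point. It was 0 with no scaling and 0 with the interquartile range of each array as a covariate. For Serpinh1 the difference was 0.17 ± 0.26 (adjusted p = 0.614). Controls were not alike at the 2 ages in scaled intensity, since A2m read 16.2 to 22.9 in 1M Control and 5.23 to 14.4 in 3M Control rats. Levels were not tested between the ages, whose arrays also differ in signal range.

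The sizes depended on how arrays were brought to one scale. With quantile normalization, which gives every array the same distribution, the 3 month log2 fold changes were 2.16 for Timp1, 1.31 for Serpinf1, 1.09 for A2m and 1.03 for Timp2, and all 4 were called among 24.6% of probes called higher. With no scaling of the intensity, where the median of all tested probes was -0.17, Timp1 (2.19, adjusted p = 0.0323) and A2m (1.14, adjusted p = 0.0309) were called among 0.345% called higher. Serpinf1 (1.07, adjusted p = 0.0714) and Timp2 (0.86, adjusted p = 0.0676) were then not called. With the interquartile range of each array as a covariate none was called, nor was any of the 22025 probes by limma. The estimates for Timp1, Serpinf1, Timp2 and A2m were then 3.10, 1.65, 1.33 and 1.11 (limma unadjusted p = 0.00208, 0.00707, 0.00515 and 0.00282). In the main comparison they were 2.80, 1.69, 1.48 and 1.76. The interquartile ranges of the 3 month groups overlap only from 2.07 to 2.23, so that array spread and diabetes cannot be told apart well.

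Some markers of other cell types were also higher at 3 months, where 50.5% of all tested probes were called higher and 3.55% lower. All 6 tested markers of reactive glia were called higher, among them Lgals3 (2.84 ± 0.41) and Gfap (1.29 ± 0.27). The summed scaled intensity of the 6 was 17.7 to 43.9 on 3M Control and 71.3 to 109.9 on 3M STZ arrays. It was 50.6 to 79.4 on 1M Control and 42.6 to 92.5 on 1M STZ arrays, which both overlap the 3M STZ range. Of 3 tested lens markers 2 were called, Lenep (2.72 ± 0.38) and Lgsn (2.20 ± 0.58), and the sum of the 5 lens markers on the array was 4.68 to 8.74 on 3M Control and 6.13 to 55.1 on 3M STZ arrays. The sum of the 4 markers of the retinal pigment epithelium, a source of Serpinf1, was 8.02 to 20.8 on 3M Control arrays and 11.2 to 15.7 on 5 of the 3M STZ arrays. On 3M STZ array 1 it was 104.6, because Ttr was one of the bright spots there. Of the 3 tested markers of this layer only Slc16a3 was called (0.47 ± 0.14; -0.11 with quantile normalization and -0.15 without scaling), and Rpe65 was at -0.10 ± 0.17. The other marker lists had 2 of 5 tested genes called higher for Müller glia, 3 of 5 for microglia and macrophages, 2 of 2 for ciliary body, iris and cornea, 3 of 5 for endothelium and pericytes, 1 of 3 for erythrocytes and 2 of 4 for rods, and none called lower. Most of these shares are near that of all probes. Both called rod genes turned negative with quantile normalization and without scaling, the called Müller glia gene Dkk3 turned to -0.06 with quantile normalization, and Kdr and Flt1 of the 3 called endothelial genes (-0.03 and -0.27) and the erythrocyte gene Slc4a1 (-0.18) turned negative without scaling. The summed microglial markers were 6.83 to 11.05 on 3M Control and 10.9 to 14.9 on 3M STZ arrays. In RNA of the whole tissue, a different number of cells of one type and a different amount of RNA per cell cannot be told apart.

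On 3M STZ array 2 the sum of the lens markers, 6.13, lay within the range of the controls. Timp1 (6.06), Timp2 (4.34), A2m (21.5) and Serpinf1 (3.33) were each at their lowest of the group on this array, and each was still above all 6 controls. The reactive glia sum was also at its lowest on it, 71.3. On 3M STZ array 6, which had the highest lens sum, 55.1, Serpinf1 read 5.61 and was the third lowest of the group. Timp1 read 14.3 there, the highest of the group apart from array 1. Timp2 read 9.35 (group range 4.34 to 11.01) and A2m 42.0 (group range 21.5 to 49.8), both toward the top. The part of lens or glial RNA in these differences was not tested further.

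Related genes are given in lists, whose counts stand beside the 50.5% of all tested probes called higher and the 3.55% called lower at 3 months. Among other serpins, higher calls were made for 4 of 8 tested, about the share of all probes, with no lower ones, and the median of their log2 fold changes was 0.53 beside 0.44 for all probes. The largest were Serping1, the C1 inhibitor of complement (2.17 ± 0.24, adjusted p = 1.32e-05; 0.872 to 2.08 in controls and 3.85 to 11.9 in STZ rats), and Serpina3n, an acute phase serpin of reactive astrocytes (1.38 ± 0.23, adjusted p = 0.000187). Serpini1, the neuronal serpin, was at 0.02 and Serpina5 at 0.03. Without scaling the called Serpinb5 (0.60) turned to -0.01, and the median of the list to -0.09 beside -0.17 for all probes. Of the cystatins and kininogens on the array 3 were tested. Cystatin B (Cstb), an inhibitor of cathepsins inside cells, was called (0.85 ± 0.18, adjusted p = 0.000988), while Cst6 (0.07) and Cst8 (-0.30) were not. Of 6 other metalloproteinase inhibitors and macroglobulins listed, 1 had a probe and it was too dim to be tested.

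The proteases that these proteins restrain did not move one way. Among 8 metalloproteinases tested, 3 were called higher, 2 were called lower and the median was 0.36, beside 50.5% of all tested probes called higher and 3.55% lower. Mmp11 (0.89 ± 0.17) and Mmp7 (0.59 ± 0.15) were the highest. Mmp7 was near background, at 0.376 to 0.827 on 3M Control arrays, where the bacterial median was 0.586 to 0.750. Mmp14, the membrane-bound metalloproteinase that works with Timp2 on pro-Mmp2, fell by 0.99 ± 0.32 on the log2 scale (adjusted p = 0.0140), though its groups overlapped at 0.799 to 5.62 and 0.556 to 1.15. Adam17, a sheddase inhibited by Timp3, fell by 0.33 ± 0.14 (adjusted p = 0.0496). Both stayed below 0 with quantile normalization and without scaling, while Mmp7 and Mmp2 turned to -0.02 and -0.07 without scaling. On 3M STZ arrays the lowest values of Mmp14 (0.556) and Adam17 (0.669) lay within the range of the bacterial median, 0.447 to 0.680. Their medians there, 0.904 and 0.757, lay above it. The part of background in these calls was not tested. Of 5 tested cathepsins and legumain 3 were called higher, among them Ctsb (0.64 ± 0.13) and Lgmn (0.49 ± 0.21), and Ctsc (-0.17) and Ctsk (-0.27) were not called. Ctsb was at -0.17 with quantile normalization and Lgmn at -0.12 without scaling. Ctss (0.49), also called, was at -0.007 with quantile normalization and -0.13 without scaling. The direction of all 3 thus rests on the scaling.

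Of 5 tested plasminogen activation and thrombin genes 4 were called higher, beside 50.5% of all tested probes, with a median of 0.82. The largest were Plat, the tissue plasminogen activator (1.14 ± 0.18, adjusted p = 0.000127), and F2r, the thrombin receptor (0.96 ± 0.17, adjusted p = 0.000238). F3, tissue factor, was at 0.49 ± 0.20 and at -0.13 without scaling, and Plau, urokinase, was at -0.45 ± 0.20 and not called. The median of 0.82 was the value of Plg, plasminogen. On 3M Control arrays Plg read 0.304 to 0.703 and F3 0.216 to 0.750. Both were thus near or below the bacterial median there, 0.586 to 0.750. Of 9 tested collagens and collagen-modifying enzymes, the clients and coworkers of Serpinh1, 5 were called higher with a median of 0.51, near the share and the median of all probes. Their median was 0.09 with quantile normalization and -0.10 without scaling, where the called Plod3 (-0.02) and Col1a2 (-0.10) turned negative, Col1a2 also with quantile normalization (-0.0097). Col5a3 (0.88 ± 0.17) and Plod2 (0.83 ± 0.21) were the highest, and Col2a1 (0.29) and Plod1 (-0.43) the lowest. Of 4 tested receptors of the inhibitors 3 were called. They were Cd63, a cell surface partner of Timp1 (0.88 ± 0.23), Lrp2, an endocytic receptor (0.73 ± 0.23), and Kdr, which Timp3 blocks (0.59 ± 0.24; -0.03 without scaling), and Rpsa was at 0.54 and not called.

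Genes of interleukin-6 signaling and the acute phase, the setting in which rat A2m and Timp1 are classically induced, had 8 of 11 tested members called higher and none lower, beside 50.5% and 3.55% of all tested probes. Their median was 0.78. Cebpd, a transcription factor of the acute phase (2.38 ± 0.33, adjusted p = 4.22e-05), and Cp, ceruloplasmin (1.63 ± 0.23, adjusted p = 4.53e-05), were the largest, with 1.09 to 4.31 in controls and 7.08 to 25.3 in STZ rats for Cebpd. Stat3 itself was at 0.39 ± 0.20 (adjusted p = 0.109) and Il6r at 0.38 ± 0.13 (adjusted p = 0.0192; -0.23 without scaling). Some of the called probes were near background. On 3M Control arrays Il6 read 0.229 to 0.474, below the bacterial median of 0.586 to 0.750. Hp (0.364 to 0.825) and Il6r (0.531 to 0.861) spanned that range. No gene of any of these 8 lists was called at 1 month.

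**Figure D3:**
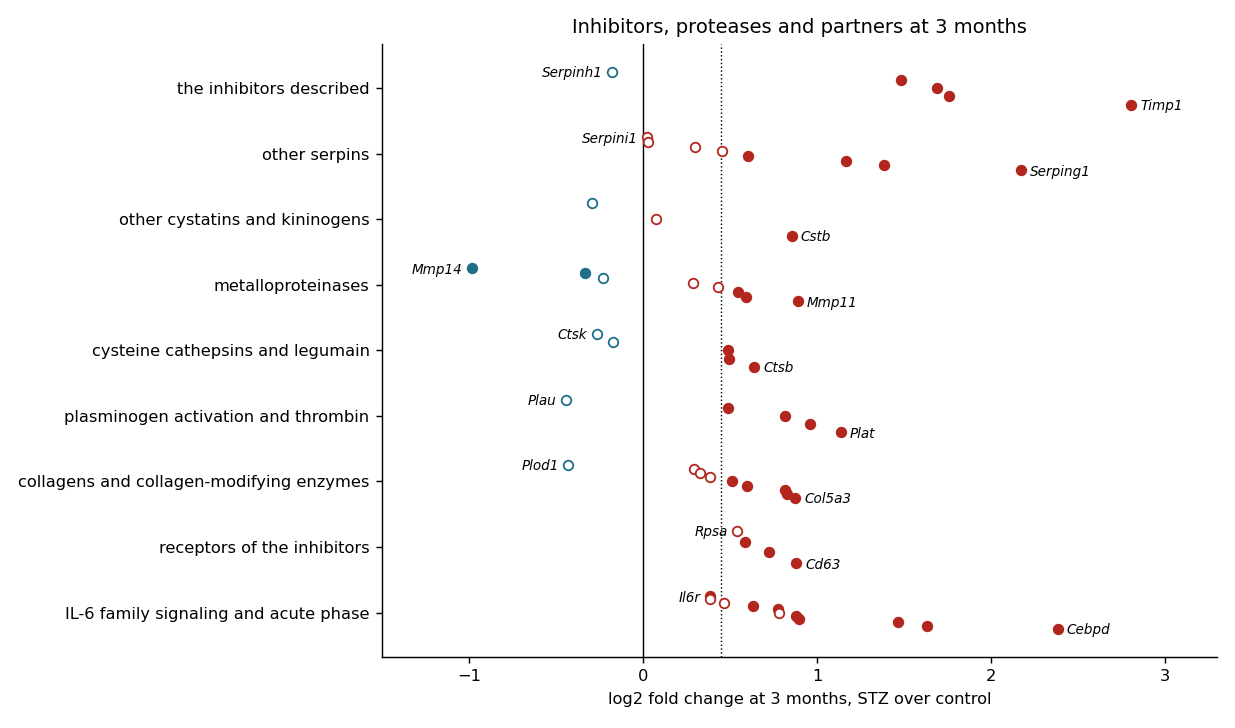
Log2 fold change at 3 months, STZ over control, of each tested gene (1 point per gene) among the 5 inhibitor probes and 8 lists of related genes. Filled points were called, red is higher and blue lower, the solid line is 0 and the dotted line is the median of all tested probes, 0.44. Timp1 at 2.80 and Cebpd at 2.38 lie farthest to the right and Mmp14 at -0.99 farthest to the left.

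The 4 inhibitors that rose did not follow one pattern from rat to rat. After subtraction of group means and without 3M STZ array 1, Pearson's r over the 23 arrays was 0.84 between Timp1 and Serpinf1, 0.75 between Timp1 and Timp2 and 0.72 between Timp2 and Serpinf1. For A2m it was 0.36 with Timp1, 0.36 with Timp2 and 0.21 with Serpinf1. Over all 24 arrays Timp1 had an r of 0.45 with Serpinf1, 0.58 with Timp2 and 0.09 with A2m. The r between Timp2 and Serpinf1 was then 0.72. All 4 inhibitors share the scaling of their array. Among named genes, those most like A2m in level over the 24 arrays were Serpina3n (r = 0.91), Rpl10 (0.90) and P2ry6 (0.89). After subtraction of group means they were Smad4 (0.86), Aadat (0.83) and Park7 (0.81). For Timp1 without 3M STZ array 1 they were Serping1 (0.94), Ptgds (0.91) and Lgals3 (0.90) in level, and Kcnj13 (0.87), Pcolce (0.86) and Serpinf1 (0.84) after subtraction. With all 24 arrays, Ralb (0.93), Spint2 (0.92) and Svs4 (0.88) came first in level and Ephx1 (0.94), Il6r (0.94, another probe than the one above) and Pola2 (0.92) after subtraction. Of these 6, all but Svs4 were among the bright spots of 3M STZ array 1.

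For Serpinf1 the genes most alike in level were Ptgds (0.87), Serping1 (0.86) and Cryba2, a lens crystallin (0.86), and after subtraction Anxa1 (0.82), Sod3 (0.81) and Kcnj13 (0.79). For Timp2 they were Anxa5 (0.93), Pmp22 (0.93) and Hif3a (0.91) in level, and Trhr (0.88), Anxa5 (0.87) and Crybb3, another lens crystallin (0.87), after subtraction.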

How the data were processed

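Retinal RNA of STZ and control rats was measured on 24 CodeLink arrays. The authors scanned each array, left out spots with manufacturing defects and took off the local background with the CodeLink software. The deposited values are this intensity, and a second intensity that the authors normalized within the array to a median near 1. Each array holds 33911 probes, 33849 of them for rat transcripts. A symbol was given to 4675 probes through RefSeq accessions (5469 probes carry one). The authors also searched the probe sequences against the rat genome, with no build named. No quality flag for single spots is given in the sources used here.

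Here each array was divided by the median over its rat probes, with a floor of 0.01 before log2. Tests covered the 22025 rat probes with a median over the arrays above 0.554, the 35th percentile. The contrasts of STZ against control came from 1 limma model (version 3.58.1, R 4.3.3) of all 4 groups, with Benjamini-Hochberg adjustment over all tested probes. Differences are called at adjusted p under 0.05 and 1.2-fold. On simulated data 86 of 100 probes changed by 1 on the log2 scale and 98 of 100 changed by 2 were called at 3 months, with 7 false calls among 22025. Few probes were changed in the simulation, while 50.5% of tested probes were called higher in the data. Its false calls therefore do not give the error rate of the 3 month comparison. Intervals given as approximate are 1.96 SE to either side. The number of arrays and the signal over background limit the precision. Where a list gene had several tested probes, the brightest was used.

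The inhibitors and the gene lists were chosen with earlier results of these data known. Named are all probes of the inhibitors, the 2 highest and 2 lowest tested genes of each list at 3 months (all of a list with under 4), and the 3 named genes whose log2 levels correlate best with each tested inhibitor, with and without group means subtracted. The genes most like Serpinh1 are not reported here. A few other list genes and marker genes are named where a call or a scaling turned on them, chosen after their values were seen.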

Additional observations from a re-analysis of the deposited data

Results flagged for a closer look

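In all, 3 values stood apart in their group of 6 by the gap to the nearest array over the whole range, by Dixon's 95% limit, which chance passes in about 1 in 20 groups (28 groups of values were checked). Timp1 on 3M STZ array 1 was the highest of its group with a gap of 0.778 of the range, and the fold changes without that array are given above. Serpinf1 on 1M STZ array 4 was the lowest of its group (0.649), at a scaled intensity of 0.669, and without it the 1 month log2 fold change was 0.18 in place of -0.19. The second Serpinh1 probe on 3M Control array 2 was the highest of its group (0.757), at 0.910, and Timp3 was also at its highest, 1.41, on that array.

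In the main comparison the effect of diabetes differed between the 3 month and the 1 month rats for 4 probes by limma's test of that difference. It differed by 1.54 for A2m, 2.87 for Timp1, 1.88 for Serpinf1 and 1.63 for Timp2 on the log2 scale. The next section gives the processing under which these calls were lost.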

How the results depend on the processing

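In 5 cases an alternative brought a count of called inhibitor probes from 4 down to 2 or fewer. Other moves at 3 months, to 3 and to 6, are given below. At 3 months 4 of 5 probes were called in the main comparison, 2 with no scaling of the intensity (an alternative chosen after seeing the data) and 0 with array spread as a covariate. The effect differed between 3 months and 1 month for 4 probes in the main comparison, for 1 with quantile normalization within each time point (A2m), for 0 with array spread as a covariate and for 0 with no scaling; the causes were not tested. Leaving out each of the 24 arrays in turn kept 4 calls at 3 months, 0 at 1 month and 4 for the difference, with Timp1 at 1.99 to 3.10, A2m at 1.58 to 1.88, Serpinf1 at 1.503 to 1.85 and Timp2 at 1.33 to 1.62 at 3 months. The methods' test called 3 of them, all but Timp1, also after adjustment (adjusted p = 0.0705 for Timp1).

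Values near 0 changed sign. At 1 month array weights gave 0.16 for Timp1, 0.16 for Timp2 and 0.30 for Serpinf1, and -0.0278 for the difference in Serpinh1. With no scaling A2m was at -0.0723 at 1 month and the Serpinh1 difference at -0.16. Leaving out single arrays gave, at 1 month, -0.21 to 0.17 for Timp1, -0.26 to 0.0245 for Timp2 and -0.37 to 0.18 for Serpinf1, the upper end without 1M STZ array 4 for Timp1, Timp2 and Serpinf1 alike.

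The groups share replicate numbers in the labels. Deviations of arrays with the same number correlated between -0.24 and 0.25, which shows no strong pairing by number but does not exclude pairing. With the replicate number as a block 4 probes were called at 3 months, 0 at 1 month and 4 for the difference. Dim probes are limited by the level of the bacterial probes, and Timp3 and the second Serpinh1 probe were called only with no filter, under which 6 of 7 probes were called at 3 months.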
